A study of Mus musculus with 3 samples.

Results

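Messenger RNAs encoded by the mitochondrial genome were followed on an expression array of CT26, a mouse colon carcinoma cell line. The probe sets were those whose annotation names COX2, ND3, ATP6 or ND6, written in capitals as mitochondrial genes are, alone or among several symbols. That gave 4 genes of 21335 symbols in the annotation, on 7 of the array's 35556 probe sets, 2 each for COX2, ND3 and ATP6 and 1 for ND6. The genes were chosen on these same values, since earlier results had shown them far apart between the control column and the others. Their differences from that column are therefore a description and carry no test. COX2 here is subunit 2 of cytochrome c oxidase, not the nuclear prostaglandin synthase Ptgs2. RefSeq lists 13 mRNAs in the mouse mitochondrial genome, and no probe set was annotated to the other 9.

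The study compared 3 groups, with 1 column of values each. Ctrl (miR-Ctrl) carried a control microRNA, Med (miR-17~92Med) a medium level and Hi (miR-17~92Hi) a high level of the microRNA cluster in its name. All cells had taken up a PIG vector with the control or cluster insert. They then went through puromycin, a GFP sort and monoclonal outgrowth by dilution, and grew in 10% fetal bovine serum. The design text gives 3 subclones per group, but the sources do not say whether a column is a single subclone, a pool or a mean. With 1 column per group no SD, SE or p-value exists, and "higher" or "lower" below refers to these columns alone.

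The mitochondrial genome is a small circular DNA present in many copies per cell and transcribed inside the organelle by a polymerase of its own. Long transcripts of each strand are cut, mostly at the tRNAs between the genes, into mRNAs and ribosomal RNAs, and the mRNAs are translated on mitochondrial ribosomes. All protein products are core subunits of the respiratory chain and the ATP synthase, which also need many subunits made from nuclear genes. ND6 is the single protein gene on the opposite strand from the others, and in mouse the ATP6 and ATP8 reading frames overlap on a shared mRNA. The cluster whose level the groups are named for acts on mRNAs in the cytosol through the seeds of its microRNAs. Its 6 main mature forms are shown because they are what the groups are meant to differ in, with bases 2 to 8 (the seed) in capitals. They lie in chr14:115043684-115044496 on the plus strand of GRCm38.p6 (RefSeq), and share 4 seeds among them.
mmu-miR-17-5p: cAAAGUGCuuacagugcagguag
mmu-miR-20a-5p: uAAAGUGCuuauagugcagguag
mmu-miR-18a-5p: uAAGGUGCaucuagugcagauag
mmu-miR-19a-3p: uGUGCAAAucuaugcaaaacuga
mmu-miR-19b-3p: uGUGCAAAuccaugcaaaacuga
mmu-miR-92a-3p: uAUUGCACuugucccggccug

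The Ctrl column stood apart from the other columns over the whole array. Across probe sets Hi and Med correlated at r = 0.992, while Hi and Ctrl correlated at 0.795 and Med and Ctrl at 0.787 (across probe sets, which are not independent replicates). Olfactory and vomeronasal receptor probe sets, a gauge of background in such a line, had a 95th percentile of 6.87 (Ctrl), 6.18 (Med) and 6.20 (Hi). In each column 7 of 12 colon epithelium and carcinoma markers lay above that level, led by the keratin gene Krt18 in Hi (12.28). The epithelial adhesion gene Epcam lay below it (Ctrl 6.15, Med 5.14, Hi 5.14). The median of all probe sets was also above it (Ctrl 6.95, Med 6.65, Hi 6.66). So were 5 of 6 striated muscle and 3 of 5 endothelial markers in each column. The count of 7 therefore does not set the colon list apart. The log2 of that list's summed level was 11.4 (Ctrl), 11.9 (Med) and 12.6 (Hi), carried by Krt18 (Ctrl 7.97, Med 11.41, Hi 12.28), while 10 of the 12 markers were lower than in Ctrl in each of Med and Hi and the list's median was 7.59 (Ctrl), 6.46 (Med) and 6.55 (Hi). Fibroblast and smooth muscle markers summed to 12.7 (Ctrl), 14.0 (Med) and 13.8 (Hi), carried by Vim (Ctrl 11.94, Med 13.89, Hi 13.63). Of those 10 markers 8 were lower than in Ctrl, Vim and Pdgfra being the exceptions, and the median was 7.91 (Ctrl), 6.92 (Med) and 6.89 (Hi). Leukocyte markers summed to 9.60 (Ctrl), 9.80 (Med) and 9.09 (Hi), and 7 of 8 were lower than in Ctrl, all but Cd68. Sums were 9.47 (Ctrl), 8.53 (Med) and 8.51 (Hi) for endothelial and 10.4 (Ctrl), 9.23 (Med) and 9.24 (Hi) for striated muscle markers. Of 8 leukocyte markers, 2 lay above the receptor level in every column, Cd3e (Ctrl 7.95, Med 6.61, Hi 6.73) and Cd68 (Ctrl 7.18, Med 9.12, Hi 7.67). The rest, among them Ptprc (Ctrl 6.23, Med 5.63, Hi 5.63), lay below it. By any amount, all 5 endothelial and all 6 striated muscle markers were lower than in Ctrl as well, in Med and in Hi. Of all 35556 probe sets, 19591 were lower in Med and 19502 in Hi. Receptor probe sets had a median difference from Ctrl of -0.39 (Med) and -0.38 (Hi). The counts of lower markers are therefore not read as a loss of particular transcripts. The part of all these markers in the differences below was not tested. Both comparisons with Ctrl use the same Ctrl column, and with 1 column a group, the clone, the RNA, the array and the processing of the deposited column cannot be told apart from the group. In bulk RNA, fewer cells with a transcript and less of it per cell cannot be told apart either.

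The COX2 protein carries the copper centre that takes electrons from cytochrome c in complex IV. One COX2 probe set (10353630) was at 5.83 (Ctrl), 13.47 (Med) and 13.36 (Hi) on the deposited log2 scale, differences from Ctrl of 7.64 in Med and 7.53 in Hi. The second (10598038) was at 6.16 (Ctrl), 13.33 (Med) and 13.26 (Hi), with differences of 7.16 and 7.10. Both read low in Ctrl and high in the other columns, and the probe sets of the gene lay at most 0.33 apart in any column. In Ctrl they stood at percentiles 78.2 and 84.96 of the receptor probe sets, so their Ctrl values lie within the background range and the true size of the difference is not known.

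COX2 was chosen for its difference and lay within the background range in Ctrl, so that difference is not ranked against nuclear genes here. The nuclear subunits of complex IV were mostly higher than in Ctrl as well. Of 13 past the expression filter (16 listed; a mean over the columns of at least 7.13), 8 exceeded Ctrl by 2-fold or more and 2 were below it by as much, both in Med (median difference 2.38) and in Hi (2.05). Over all 9969 genes past the filter the medians were 0.42 and 0.39. Of them 34.9% (Med) and 33.5% (Hi) were 2-fold higher and 8.70% and 8.40% lower, the shares to set beside each list below. The filter takes a mean over the columns, so a gene low in Ctrl can pass it through Med and Hi. Without the filter 18.3% (Med) and 17.5% (Hi) of 19938 genes were 2-fold higher and 16.3% and 15.4% lower. The medians were then -0.20 and -0.19, so the shares past the filter depend on it. The complex IV medians were 1.34 and 1.38 with quantile normalization and 0.90 and 1.10 with loess. Cox7b, a small membrane subunit, was at 6.13 (Ctrl), 11.51 (Med) and 11.34 (Hi). Cox6c was at 8.30 (Ctrl), 12.44 (Med) and 12.96 (Hi), and Cox6a1 at 6.67 (Ctrl), 10.11 (Med) and 10.14 (Hi). The Ctrl values of Cox7b and Cox6a1 lay under the receptor 95th percentile of that column, 6.87. For these and for nuclear genes below with a Ctrl value under 6.87, the true size of the difference is not known either. The lower subunits were 2 isoforms known from particular tissues, Cox4i2 of lung (Ctrl 8.14, Med 6.89, Hi 6.89) and Cox6a2 of heart and skeletal muscle (Ctrl 8.85, Med 7.66, Hi 7.76), each under 2-fold when columns are centred on their medians. Cox5a was at 8.95 (Ctrl), 8.95 (Med) and 8.93 (Hi).

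Assembly factors that act on the COX2 protein did not go one way. Cox18, which moves a part of COX2 across the inner membrane, was at 7.83 (Ctrl), 10.56 (Med) and 10.14 (Hi). Cox20, which holds newly made COX2 for its maturation, was at 10.06 (Ctrl), 8.99 (Med) and 8.99 (Hi), a difference of -1.07 that is under 2-fold with centred columns. Sco1, a copper carrier for the same centre, was at 6.63 (Ctrl), 7.53 (Med) and 7.84 (Hi), and Surf1, a factor of early complex IV assembly, at 6.33 (Ctrl), 9.63 (Med) and 9.68 (Hi). Of 14 complex IV assembly genes past the filter (20 listed), Hi had 8 that were 2-fold higher and 1 that was lower, and Med had 7 and 1.

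ATP6 encodes the membrane subunit of the ATP synthase (complex V) that forms the path of the protons. Its probe set 10598043 was at 5.61 (Ctrl), 13.61 (Med) and 13.42 (Hi), with differences from Ctrl of 8.005 and 7.81, the highest of the 7 in both comparisons. Probe set 10353626 was at 6.14 (Ctrl), 13.41 (Med) and 13.20 (Hi), with differences of 7.28 and 7.07. Both were annotated also to Gm10925, which RefSeq lists as a pseudogene on chromosome 1 with ATP6 among its synonyms and with the same length, 681 bases. RNA of the mitochondrial gene and of this nuclear copy therefore cannot be told apart on these probe sets. By their annotation 4 of the 7 probe sets belong to a single gene (COX2 and ND3). The medians over those alone, 7.42 in Med and 7.14 in Hi, were close to the medians over all 7. One of the 4, COX2 probe set 10353630, is numbered beside ATP6 probe set 10353626, apart from the run that holds the other members. Whether it also reads a nuclear copy was not tested.

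Nuclear subunits of complex V were mostly higher as well. Of 15 past the filter (18 listed), 11 exceeded Ctrl by 2-fold and none was lower by 2-fold, in Med as in Hi, and the median was 1.64 in both. With quantile normalization and with loess the counts were 8 higher and 2 lower in each column. The subunit genes Atp5d (Ctrl 7.96, Med 13.14, Hi 12.96), Atp5c1 (Ctrl 8.86, Med 12.86, Hi 12.84) and Atp5b (Ctrl 9.60, Med 13.16, Hi 13.09) were highest. Atp5e was at 9.70 (Ctrl), 8.92 (Med) and 8.92 (Hi), and Atp5g3, a gene of the rotating ring that sits beside ATP6, at 11.69 (Ctrl), 11.45 (Med) and 11.54 (Hi). These 2 were over 2-fold lower under quantile normalization (-1.72 and -1.36 in Hi), and the sign of Atp5g3 turned with centred columns. Of 4 complex V assembly genes, 3 exceeded 2-fold in each column, and one was Tmem70 (Ctrl 6.76, Med 8.86, Hi 8.71).

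ND3 and ND6 are membrane subunits of complex I, the entry point of electrons from NADH. The ND3 probe set 10598055 was at 5.16 (Ctrl), 12.68 (Med) and 12.34 (Hi), with differences of 7.52 and 7.18. The other, 10598049, was at 4.98 (Ctrl), 12.29 (Med) and 12.08 (Hi), with differences of 7.31 and 7.10. In Ctrl they stood at percentiles 57.6 and 51.9 of the receptor probe sets, within the background range.

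ND6 showed the smallest difference of the members. Its probe set 10598087 was at 4.32 (Ctrl), 9.29 (Med) and 8.87 (Hi), with differences of 4.96 and 4.55. All 7 Ctrl values lie within the receptor range, so each difference is taken against a floor and the order of the members' differences is not read further. The probe set was also annotated to the nuclear gene Acsm2, a mitochondrial acyl-CoA synthetase gene. The single-gene probe set of Acsm2 was at 6.00 (Ctrl), 5.31 (Med) and 5.33 (Hi), so it was not higher than in Ctrl. Each value lay under the receptor 95th percentile of its column, so a change of Acsm2 cannot be judged from it. Under loess scaling the member differences ran from 4.80 to 6.31 in Hi.

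Among nuclear complex I subunits, 33 of 36 listed passed the filter. In Med 18 of them were 2-fold higher than in Ctrl and none lower (median 1.10), and in Hi 17 and none (median 1.08). Under quantile normalization these were 12 and 13 higher and 1 lower in each, with medians of 0.38 and 0.41. Ndufs4 (Ctrl 6.62, Med 11.61, Hi 11.59), a subunit whose loss causes Leigh-like disease in mice, was highest, followed by Ndufb6 (Ctrl 6.35, Med 10.69, Hi 10.66) and Ndufc2 (Ctrl 7.43, Med 11.48, Hi 11.48). Ndufa5 and Ndufa6 had the same deposited value in every column, 7.58 and 9.35. Such ties are frequent: 8.75% of all probe sets were identical between Med and Ctrl, and 9.21% between Hi and Ctrl. Different genes can also share a value, as Twnk and Cox19 do in Med and Hi (7.81666). A tie is therefore not read as a measured lack of change. Assembly factors of the complex lay near Ctrl, with 2 of 10 past the filter (15 listed) 2-fold higher in Med and 1 in Hi. Ndufaf1 was at 7.94 (Ctrl), 8.35 (Med) and 8.35 (Hi), and Tmem126b at 6.92 (Ctrl), 7.98 (Med) and 7.98 (Hi).

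**Figure D1:**
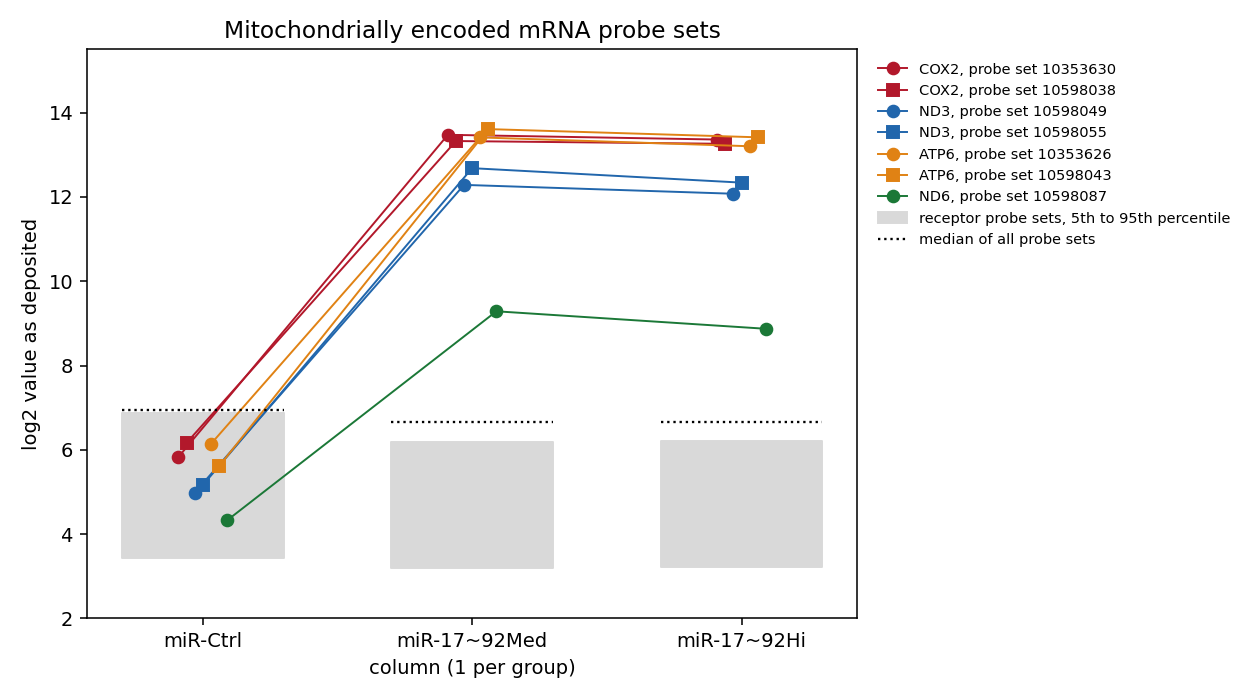
Deposited log2 values (vertical axis) of the 7 mitochondrial mRNA probe sets in the Ctrl, Med and Hi columns; each line is a probe set, grey bands are the 5th to 95th percentile of receptor probe sets, and dotted lines are the column medians. All 7 lie inside the grey band in Ctrl, between 4.32 and 6.16, and above it in Med (9.29 to 13.61) and Hi (8.87 to 13.42).

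Over the array, the members sat at the far end of the differences from Ctrl. All 7 were at least 2-fold higher in Med than in Ctrl and in Hi than in Ctrl, where 20.0% and 19.4% of all probe sets were (16.1% and 15.3% were lower). Since the genes were chosen for this contrast, nothing is read from that count. The COX2, ND3 and ATP6 probe sets ranked between 15 and 41 of 35556 from the highest difference in Med, and between 21 and 43 in Hi. ND6 ranked 293 in Med and 416 in Hi. The median of all probe sets was -0.15 in both comparisons, and the central 95% ran from -1.70 to 3.73 in Med and from -1.67 to 3.63 in Hi.

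Percentiles within a column restate the choice of the members and are given as a description. The members stood at percentiles 10.4 to 34.1 of the Ctrl column. In Med they stood at 84.3 (ND6) and 98.0 to 99.6 (the rest), and in Hi at 80.3 and 97.7 to 99.5.

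**Figure D2:**
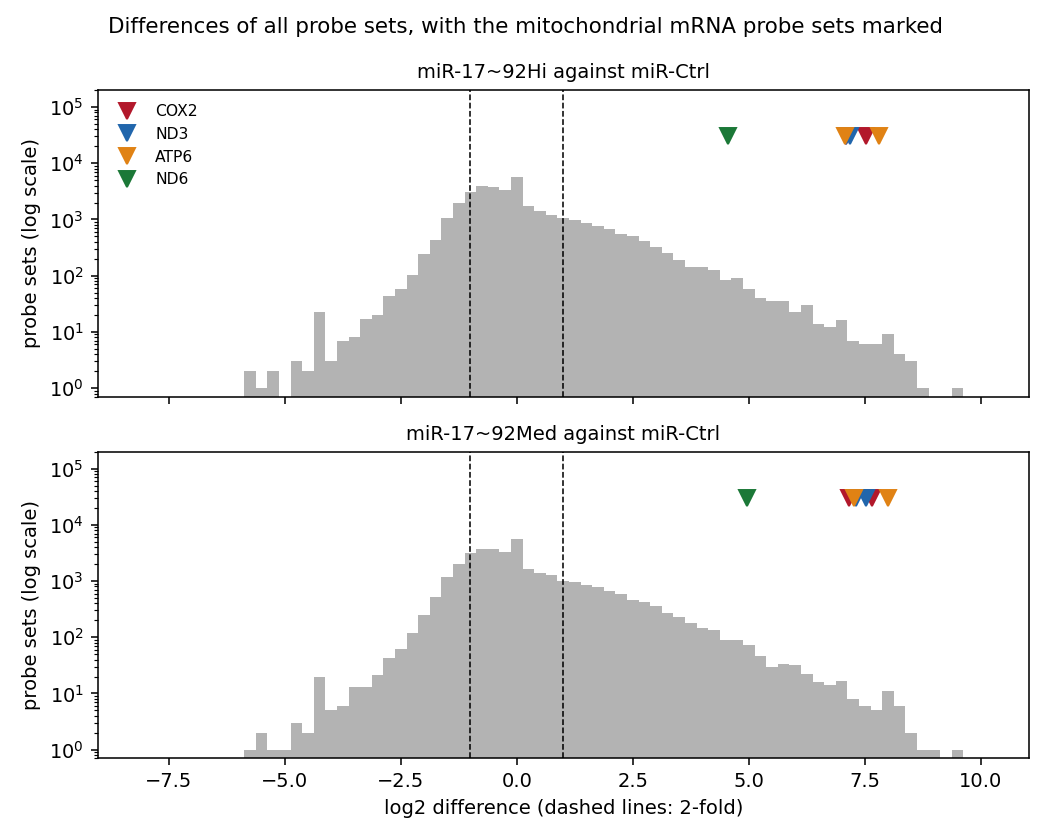
Number of probe sets (vertical axis, log scale) by log2 difference (horizontal axis) for Hi against Ctrl above and Med against Ctrl below; triangles mark the member probe sets by gene and dashed lines 2-fold. ND6 lies at 4.55 and 4.96 and the other members between 7.07 and 8.005, in the right tail of both distributions.

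The next comparison sets Hi against Med and leaves the Ctrl column out. The 7 mitochondrial mRNA probe sets were all slightly lower in Hi than in Med, and none was 2-fold apart. The differences were -0.41 for ND6, -0.34 and -0.21 for ND3, -0.21 and -0.19 for ATP6, and -0.11 and -0.07 for COX2, with a median of -0.21. The members kept this sign with centred columns, quantile normalization and loess scaling, where the difference nearest to 0 was -0.03. Of all probe sets, 27.6% were lower in Hi than in Med by any amount and 43.7% were identical. Among the 5457 other probe sets whose Med value lay in the members' range, 9.29 to 13.61, 2511 (46.0%) were lower, 1575 identical and 1371 higher, with the central 90% between -0.62 and 0.35. The members stood between percentiles 10.5 (ND6) and 36.7 (COX2) of these, all inside that range. They are not independent readings, since several probe sets share a gene and all share a genome. At 2-fold, 0.835% of all probe sets were above Med and 0.844% below it in the Hi column.

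**Figure D3:**
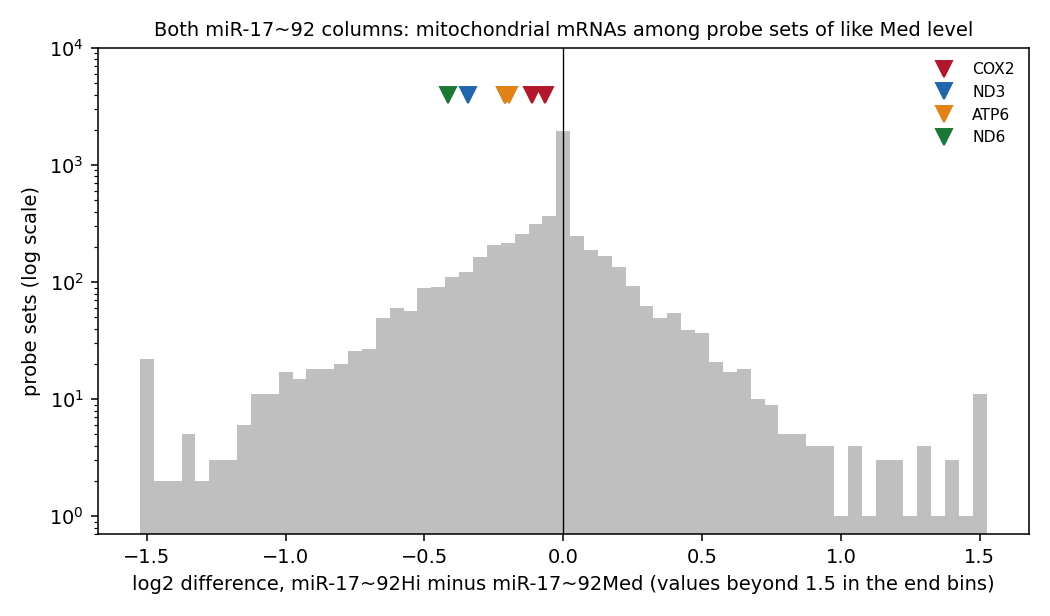
Number of probe sets (vertical axis, log scale) by log2 difference of Hi minus Med (horizontal axis), for the 5457 probe sets whose Med value lies between 9.29 and 13.61; triangles mark the members by gene. The members lie between -0.41 and -0.07, to the left of 0 and inside the bulk of the distribution.

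Probe sets numbered together with the members were read beside them, a choice made after their values were seen. The annotation used names 5 of the members within a run of 33 probe-set numbers between Ccr1l1 and Tarm1, of which 27 carry no gene name and 1 is annotated to Malat1 and Ramp2. The unnamed ones are given no gene here. Of those 27, 24 were at least 2-fold higher in Med and 24 in Hi than in Ctrl, and none was lower by 2-fold. Their median difference was 5.48 in Med and 5.09 in Hi, with highest values of 8.34 and 8.13. In Hi against Med, 20 of the 27 were lower, 3 identical and 4 higher, the median being -0.15, and no pair of values was 2-fold apart.

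The run did not read low throughout in Ctrl. Probe set 10598025 was at 13.91 (Ctrl), 14.53 (Med) and 14.49 (Hi), close to the top of every column. Probe set 10598032 had a tied value, 10.89 in all columns, and 10598020 was at 9.47 (Ctrl), 14.15 (Med) and 14.12 (Hi). These 3 were the unnamed probe sets above 9 in Ctrl, against 19 above 9 in Med and 20 in Hi. The probe set annotated to Malat1 and Ramp2 was at 5.80 (Ctrl), 14.07 (Med) and 13.91 (Hi). The single-gene probe set of Malat1, a nuclear noncoding RNA, was at 6.24 (Ctrl), 12.11 (Med) and 12.31 (Hi), and that of Ramp2 at 7.05 (Ctrl), 5.71 (Med) and 5.74 (Hi). The other 2 members, a COX2 and an ATP6 probe set, were numbered between Col19a1 and Adgrb3 with 1 unnamed probe set, 10353624, which was at 5.59 (Ctrl), 13.48 (Med) and 13.21 (Hi).

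**Figure D4:**
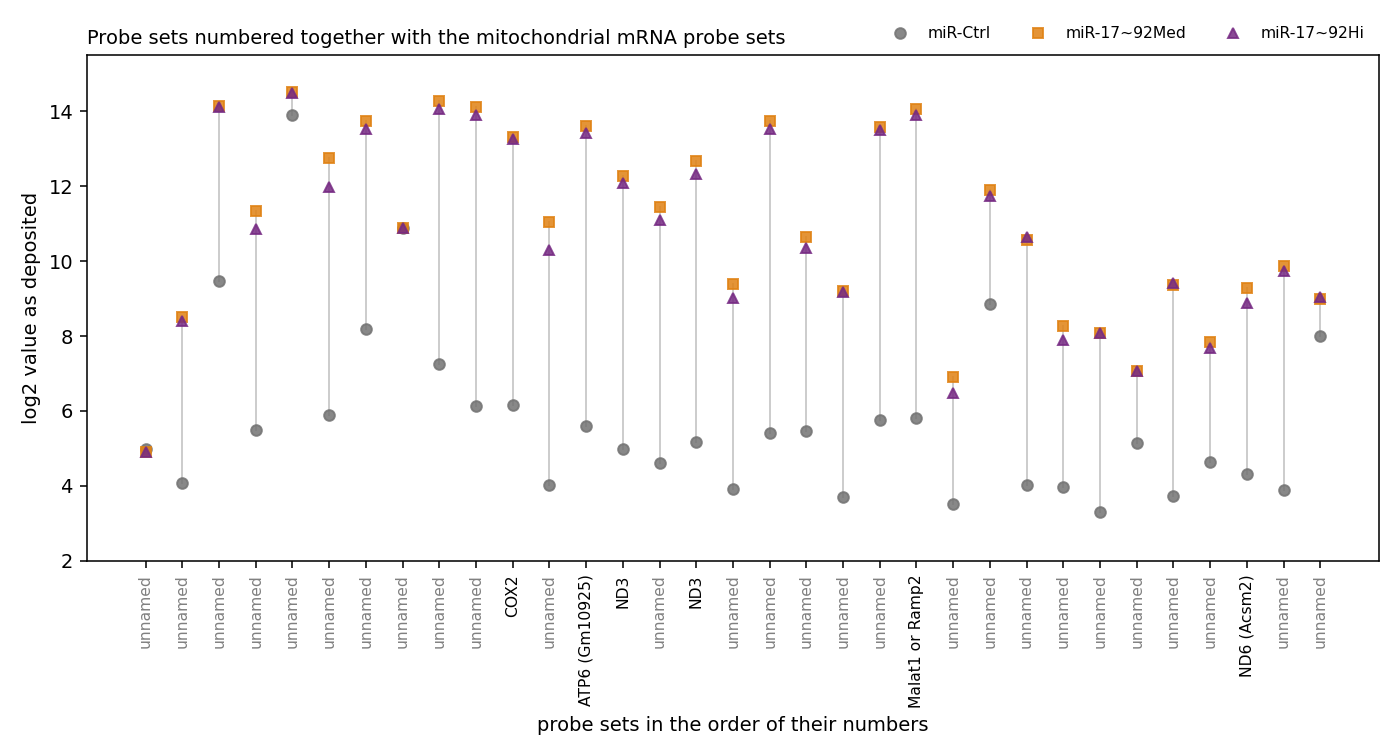
Deposited log2 values (vertical axis) in Ctrl, Med and Hi of the 33 probe sets numbered between Ccr1l1 and Tarm1, in the order of their numbers (horizontal axis); grey lines join the values of a probe set. Most have a Ctrl value well below Med and Hi, while 10598025 and 10598032 (the fifth and the eighth from the left) are high in all columns.

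Nuclear genes of mitochondrial function were set beside the mRNAs, among them the complex subunits above and the genes that keep and read the mitochondrial genome. Across all 15 lists, 268 of 306 distinct genes were past the filter, 147 of them 2-fold above Ctrl and 8 below it in Med, against 146 and 8 in Hi, with a median of 1.14 in each. With quantile normalization the counts were 114 and 19 in Med and 115 and 18 in Hi, and those of all genes past the filter 25.6% higher and 17.6% lower in Med and 25.2% and 16.6% in Hi. With loess the shares of all genes past the filter were 24.2% higher and 11.2% lower in Med and 23.1% and 10.5% in Hi. With centred columns they were 42.1% and 4.70% in Med and 40.6% and 4.17% in Hi. Leaving the filter aside, 289 genes were measured, and Cox7b had the highest difference among them, 5.37 in Med and 5.21 in Hi. The 6 COX2, ND3 and ATP6 probe sets all lay above it, and ND6 lay below it in both. Under loess scaling all 7 members lay above the highest nuclear gene. The members were chosen for this contrast, so these positions are a description.

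Replication genes were mixed. Of 6 transcription genes past the filter, 5 were higher than in Ctrl by any amount, 1 was tied and 0 were lower in each column. Of all genes past the filter 62.7% (Med) and 62.5% (Hi) were higher. Tfam, which packages the mitochondrial genome and starts its transcription, was below the filter at 5.38 (Ctrl), 7.22 (Med) and 7.19 (Hi). The mitochondrial RNA polymerase Polrmt had the same deposited value in all columns, 8.77, a tie as described above. Its partner in promoter opening, Tfb2m, was at 6.62 (Ctrl), 9.43 (Med) and 9.39 (Hi), and the elongation factor Tefm at 6.87 (Ctrl), 7.95 (Med) and 8.08 (Hi). The replicative helicase Twnk was at 7.51 (Ctrl), 7.82 (Med) and 7.82 (Hi) and the polymerase Polg at 8.14 (Ctrl), 7.70 (Med) and 7.70 (Hi). Transcription genes had 4 of 6 past the filter (10 listed) 2-fold higher in each column. Of 13 replication genes (14 listed), Med had 4 higher and 1 lower, and Hi 5 and 1, near the 34.9% and 33.5% of all genes that were 2-fold higher. The lower gene was Rrm2b, a ribonucleotide reductase subunit (Ctrl 8.63, Med 7.17, Hi 7.62). With centred columns 1 replication gene was 2-fold lower in Med and 0 in Hi.

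Genes that process and stabilise mitochondrial RNA were higher than in Ctrl in 18 of 18 past the filter (21 listed) in each column by any amount, as were 62.7% (Med) and 62.5% (Hi) of all genes past the filter. The difference was 2-fold in 12 in Med and 11 in Hi, with medians of 1.77 and 1.65. Lrpprc, which with Slirp protects mitochondrial mRNAs, was at 7.28 (Ctrl), 9.89 (Med) and 9.86 (Hi), and Slirp at 7.29 (Ctrl), 9.40 (Med) and 9.48 (Hi). Hsd17b10, a subunit of the nuclease that trims the 5′ ends of tRNAs, was at 8.18 (Ctrl), 12.38 (Med) and 12.53 (Hi), while Elac2, which cuts their 3′ ends, was at 8.45 (Ctrl), 8.71 (Med) and 8.71 (Hi). Pnpt1, an exonuclease that degrades mitochondrial RNA, was at 6.36 (Ctrl), 10.48 (Med) and 9.59 (Hi), and its helicase partner Supv3l1 at 8.55 (Ctrl), 8.56 (Med) and 8.56 (Hi). The poly(A) polymerase Mtpap was at 6.44 (Ctrl), 9.81 (Med) and 9.19 (Hi). In Hi against Med, Pnpt1 had a difference of -0.89 and Mtpap of -0.62, both under 2-fold.

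Mitochondrial ribosomal protein genes were 2-fold higher in 38 of 74 past the filter (79 listed) and lower in 1, in each column, with a median of 1.13. With quantile normalization 29 (Med) and 30 (Hi) were higher and 5 lower. Dap3, a small-subunit protein that binds GTP, was at 6.09 (Ctrl), 9.79 (Med) and 9.64 (Hi), and Mrps16, the gene that was lower, at 10.42 (Ctrl), 9.05 (Med) and 9.05 (Hi). Of 11 translation factors, 7 exceeded 2-fold in both columns, one being Oxa1l, the insertase that places newly made mitochondrial proteins in the inner membrane (Ctrl 7.24, Med 10.45, Hi 10.41). The elongation factor Tufm had such a tie too, 9.38 in all columns. Import genes had 7 of 21 higher and 1 lower in each column, near the share of all genes. With quantile normalization and with loess 4 (Med) and 3 (Hi) were lower, and the medians were 0.02 and 0.04, and -0.08 and -0.07. With centred columns 0 import genes were 2-fold lower in Med and in Hi. Hspa9, the matrix motor chaperone, was at 7.52 (Ctrl), 12.01 (Med) and 11.86 (Hi).

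Complexes II and III were 2-fold higher in 11 of 13 genes in each column, but in 4 (Med) and 5 (Hi) with quantile normalization and in 3 of each with loess. The loess counts are near the share of all genes past the filter, 24.2% (Med) and 23.1% (Hi). Complex II is built from nuclear genes alone. Uqcrh (Ctrl 7.56, Med 12.31, Hi 12.04) and Uqcrb (Ctrl 7.31, Med 11.79, Hi 11.63) of complex III were highest. Abundant proteins of the organelle were 2-fold higher in 14 of 16 and lower in 1 in each column, but higher in 10 (Med) and 9 (Hi) with quantile normalization and in 7 and 5 with loess. Among them were the outer-membrane channel Vdac1 at 8.02 (Ctrl), 11.95 (Med) and 11.95 (Hi) and the chaperonin Hspd1 at 7.23 (Ctrl), 11.12 (Med) and 11.18 (Hi). The lower gene was the ADP/ATP carrier Slc25a5, at 12.31 (Ctrl), with differences of -1.18 (Med) and -1.31 (Hi). With centred columns 0 genes of this list were 2-fold lower in Med and 1 in Hi. Regulators of mitochondrial biogenesis had 1 of 7 higher, Gabpa (Ctrl 7.16, Med 8.36, Hi 8.36), and 1 lower, Esrra (Ctrl 9.53, Med 8.37, Hi 8.39), with a median of 0.00, and Esrra was under 2-fold with centred columns. The coactivator Ppargc1a, below the filter, was at 7.26 (Ctrl), 4.95 (Med) and 4.95 (Hi), the lower values lying within the receptor range. None of the 268 genes was 2-fold apart between Hi and Med, where 58 were higher, 130 identical and 80 lower. Of all genes past the filter, 0.682% were 2-fold higher in Hi, 0.863% were 2-fold lower and 31.3% were lower by any amount.

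**Figure D5:**
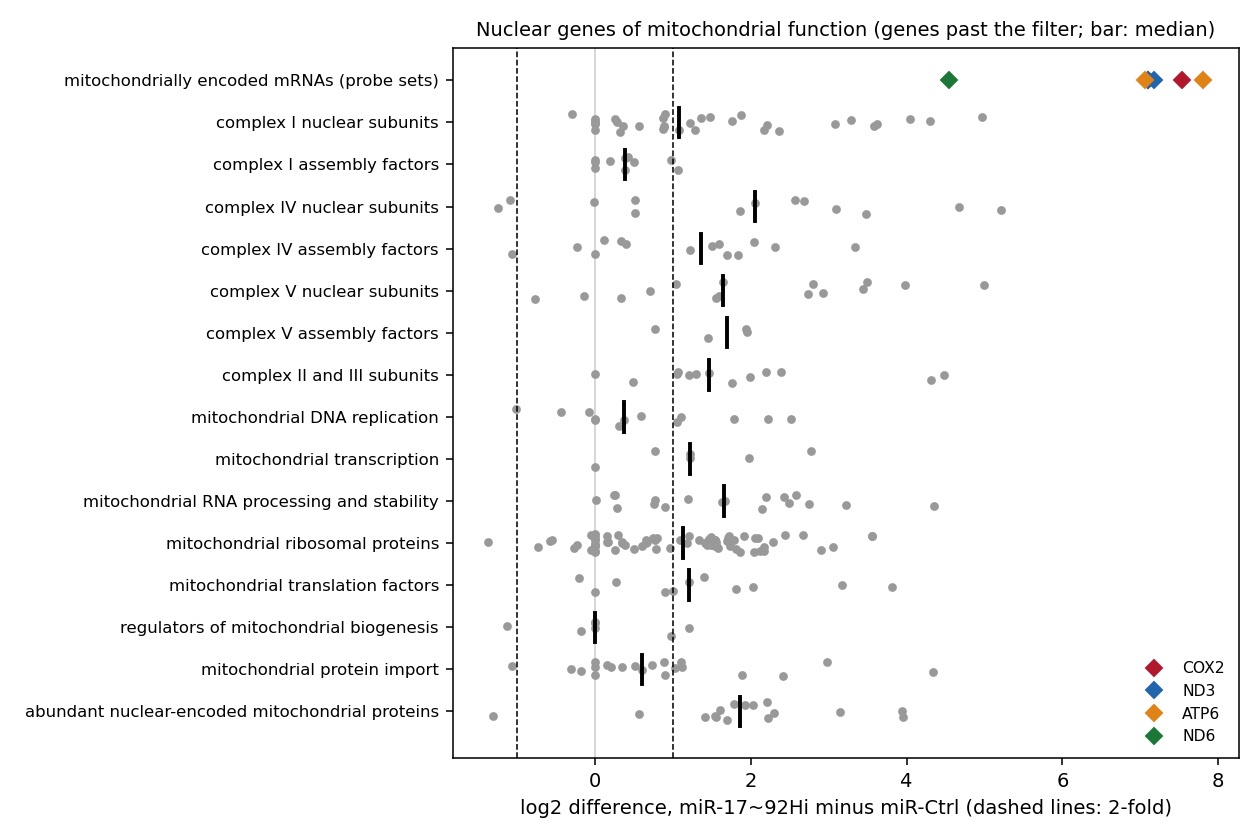
Log2 difference of Hi minus Ctrl (horizontal axis) for the member probe sets (diamonds, top row, coloured by gene) and for genes past the filter in each of the 15 nuclear lists (grey points, 1 per gene, with the median as a black bar; dashed lines mark 2-fold). The COX2, ND3 and ATP6 probe sets lie between 7.07 and 7.81, beyond every grey point, and ND6 at 4.55 lies among the highest of them.

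Probe sets with the most similar pattern were found by the Euclidean distance between values over the 3 columns, each minus its own mean. For COX2 and ATP6, as for ND3, the nearest of the single-gene probe sets was 10582545, annotated to the potassium channel gene Kcnma1 (Ctrl 6.66, Med 14.18, Hi 14.07), at a distance of 0.09 from COX2 and from ATP6 and 0.19 from ND3. The other Kcnma1 probe set, 10418053, was at 5.83 (Ctrl), 5.12 (Med) and 5.11 (Hi), so the gene's probe sets disagree and 10582545 cannot be taken as a reading of it. B2m (Ctrl 6.19, Med 13.20, Hi 13.15), Ifitm3 (Ctrl 5.20, Med 13.08, Hi 13.04) and Snord82 (Ctrl 4.42, Med 11.46, Hi 11.61) were among the 5 nearest of each of these 3 genes. A probe set of Prdx2 (10356999) was among those of COX2 and ATP6 and one of Rpl5 (10459669) among those of ND3. Each differed from the gene's other probe sets, which were at 8.12 (Ctrl), 9.67 (Med) and 10.00 (Hi) for Prdx2 and at 9.05 or more in Ctrl for Rpl5. For ND6 the nearest were Zdhhc2 (Ctrl 5.83, Med 10.85, Hi 10.39), Tcim (Ctrl 4.74, Med 9.81, Hi 9.27), Rtp4 (Ctrl 5.69, Med 10.48, Hi 10.12), Hpse (Ctrl 6.91, Med 11.71, Hi 11.44) and Serinc3 (Ctrl 7.66, Med 12.58, Hi 12.35), at distances of 0.05 to 0.14.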

How the data were processed

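RNA (100 ng per sample) was copied by T7-linked random priming, as the labels' protocols state, and its cRNA, end-labelled with biotin, went onto Affymetrix arrays. The submitters' processing notes name Affymetrix Expression Console and GCRMA without role or version. The deposited values are taken as log2 from their range (2.13 to 14.85), and the labels call them normalized. Nothing was renormalized in the reported values. No value column was left without a sample (0).

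Gene names came from GEO's platform annotation, updated by gene number to RefSeq GRCm38.p6 (21698 of 21789 single-gene probe sets). Single-gene probe sets were averaged per gene (19938 genes), and genes with a mean over the columns of at least 7.13, the median, passed the filter (9969). Differences between columns were counted at 2-fold (1 on the log2 scale). Members and gene lists were chosen with earlier results of these data known. Genes named from a nuclear list were the 3 highest and 3 lowest past the filter in Hi minus Ctrl, any 2-fold apart between Hi and Med, and a few fixed by name, and the text gives part of them. Alternatives were centring on column medians or on receptor probe sets, quantile and cyclic loess normalization, no filter, and single-gene probe sets. The counting step was tested on simulated data. Python 3.11.15, pandas 2.3.3 and limma 3.58.1 were used. No sequence of the mitochondrial genes was used here.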

Additional observations from a re-analysis of the deposited data

How the results depend on the processing

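The member differences from Ctrl kept their sign and stayed past 2-fold under column centring on the median, quantile normalization, loess scaling and centring on receptor probe sets. Counted over probe sets of 1 gene, or per gene, 4 of 4 were 2-fold higher in Med and in Hi, as were 20.0% and 19.4% of all probe sets. The members were chosen for these large differences, so the kept sign and these counts are a description and no support. Centring on medians raises every difference from Ctrl by 0.30 in Med and 0.29 in Hi, and centring on receptors by 0.41 in each. Without the filter 151 (Med) and 150 (Hi) of 289 nuclear genes were 2-fold higher and 10 lower in each. Of all genes without the filter 18.3% and 17.5% were higher and 16.3% and 15.4% lower. Over the 268 nuclear genes the median difference was 0.67 (Med) and 0.75 (Hi) with quantile normalization and 0.61 and 0.63 with loess, under 2-fold. Genes lower by 2-fold numbered 2 in Med and 2 in Hi with centred columns, 1 and 0 with receptor centring, 19 and 18 with quantile normalization and 18 and 15 with loess. For Hi against Med their median was -0.0095 with centred columns, 0.030 with quantile normalization and 0.011 with loess. The cause of these shifts was not tested. No paired analysis was possible because each group has 1 column, and leaving out a replicate was not possible for the same reason. Ctrl values within the receptor range limit what the size of a difference means.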
